A study of Mus musculus with 20 samples.

Results

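The 20 tumours of a propafenone and anti-PD-1 experiment were divided by their own Cd8a level, so that the classes were chosen by measured Cd8a, and the 8 tumours richest in Cd8a were set against the 8 poorest. Cd8a encodes the CD8 alpha chain, a surface protein of cytotoxic T cells that is also carried by a subset of dendritic cells. In each treatment group the 2 libraries with the highest Cd8a in CPM (the count divided by the library total and multiplied by 1e+06) were called Cd8a-high and the 2 with the lowest were called Cd8a-low. The 1 library in the middle of each group was left out, so 16 of 20 tumours entered the comparison. Each class therefore held 2 tumours of every treatment, and treatment was kept as a block in the test.

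The tumours were B16F10, a pigmented melanoma line of C57BL/6 origin, grown in immunocompetent wild type C57BL/6 mice and profiled whole by bulk RNA sequencing. The 4 groups of 5 tumours had received propafenone plus anti-PD-1 (the combination), anti-PD-1, propafenone, or control IgG. Injections were intraperitoneal, starting at about 100 mm3, and day 16 was the day of excision. Propafenone is an antiarrhythmic sodium channel blocker, anti-PD-1 blocks an inhibitory receptor of T cells, and the series title names ferroptosis and synergy with immunotherapy. The labels of the propafenone tumours name the drug alone and do not say whether control IgG was given beside it. Age and sex of the mice are not given, nor whether any pair of tumours came from 1 mouse, so p-values measure the spread between these libraries. Libraries held between 55.99 and 64.5 M expected counts, and melanoma markers were abundant in all 20.

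Cytotoxic T cells recognise peptides that tumour cells show on MHC class I molecules, and release interferon gamma when they do. Interferon gamma signals through its receptor to raise the transcription factor IRF1 and a set of targets that includes the antigen processing machinery, guanylate-binding proteins, the chemokines CXCL9 and CXCL10, and PD-L1. Those chemokines attract more T cells through the receptor CXCR3, and PD-L1 restrains them through PD-1. B16F10 is known as a poorly infiltrated tumour with low basal MHC class I.

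Cd8a chose the classes, so its values are a description. It stood at 3.36 and 1.71 CPM in the Cd8a-high combination tumours and at 0.847 and 0.274 CPM in the Cd8a-low ones, with the middle tumour at 1.22 CPM. Anti-PD-1 tumours had 1.23 and 1.005 CPM in the high class and 0.0956 and 0 CPM in the low class, around a middle value of 0.321 CPM. Propafenone tumours had 1.26 and 0.736 CPM against 0.450 and 0.384 CPM, with a middle value of 0.618 CPM. IgG tumours had 1.23 and 0.692 CPM against 0.264 and 0.205 CPM, with a middle value of 0.533 CPM. The class means lay farthest apart in CPM in the combination, while the gap between the lower high and the upper low tumour was of like size in the anti-PD-1 group. The combination's upper Cd8a-low tumour lay above the lower Cd8a-high tumours of the propafenone and IgG groups.

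These are small counts. The deposited counts of Cd8a ran from 0 to 211, and on the assumption, taken from the table's low values, that 1 fragment gave 4 counts, the most Cd8a-rich tumour held 53 fragments. On that reading the 95% Poisson intervals of the lower Cd8a-high tumour and of the middle tumour overlapped in all 4 groups. The lower Cd8a-high and the upper Cd8a-low tumour were separated by their intervals in the anti-PD-1 group and overlapped in the other 3. The anti-PD-1 tumour with no Cd8a count has an upper limit of 0.264 CPM. The intervals cover counting error only.

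**Figure D1:**
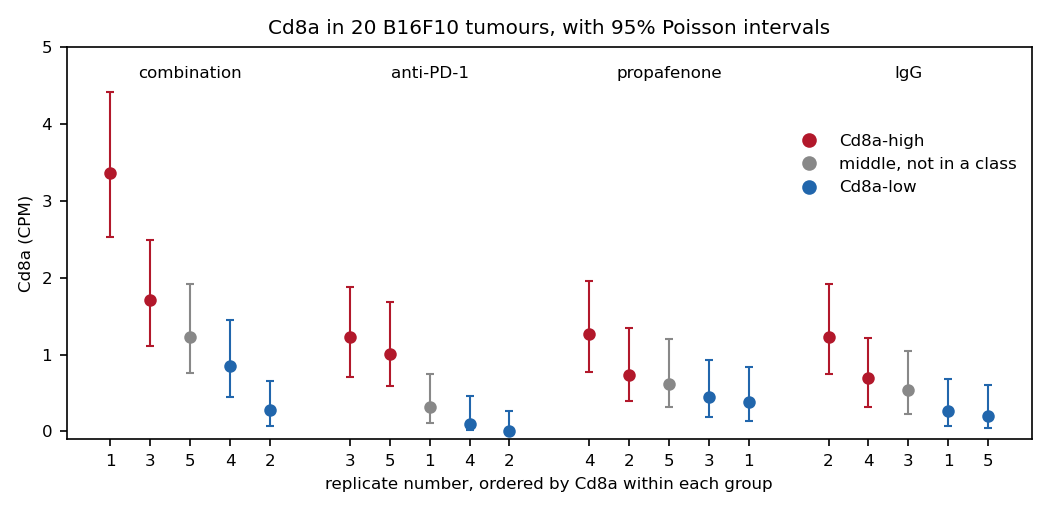
Cd8a in CPM (vertical axis) in each of the 20 tumours, ordered by Cd8a within each group (horizontal axis, replicate numbers); points are libraries coloured by class and bars are 95% Poisson intervals at 4 counts per fragment. The Cd8a-high tumours of the combination sit at 3.36 and 1.71, above every other library, and the bars of neighbouring tumours overlap in most places.

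Across the other genes, many more were called higher than lower in Cd8a-high tumours. Of 15910 genes tested, 284 were higher in Cd8a-high tumours (1.79%) and 3 were lower (0.0189%) at an adjusted p under 0.05 from edgeR's quasi-likelihood test with Benjamini-Hochberg adjustment over all of them, the threshold used for every call here. An unadjusted p under 0.05 was reached by 1048 genes. The median log2 fold change was 1.28 over the 284 genes, with a range of 0.30 to 3.51, and -0.01 over all genes tested. Of the 284, 204 differed by at least 2-fold, and 279 were higher on average in each of the 4 treatment groups. The same libraries chose the 284 genes, so the count of 279 is a description and not independent support. Both Cd8a-high tumours exceeded both Cd8a-low tumours in every group for 207 of the 284 genes and for 267 of all genes (1.68%). The 8 highs lay wholly above the 8 lows for 47 of the 284 and for 49 of all genes (0.308%).

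The difference between classes was not shown to depend on the treatment. A class by treatment interaction called 0 of 16607 genes with edgeR (lowest adjusted p = 0.334) and 0 with limma voom. An unadjusted interaction p under 0.05 was reached by 806 genes with edgeR and 769 with limma voom. Of the 284 genes called higher in Cd8a-high tumours, 36 had an unadjusted edgeR interaction p under 0.05. This was a larger share than over all genes, and the excess was not tested. With 2 tumours per class and treatment, small differences in response would not be seen.

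**Figure D2:**
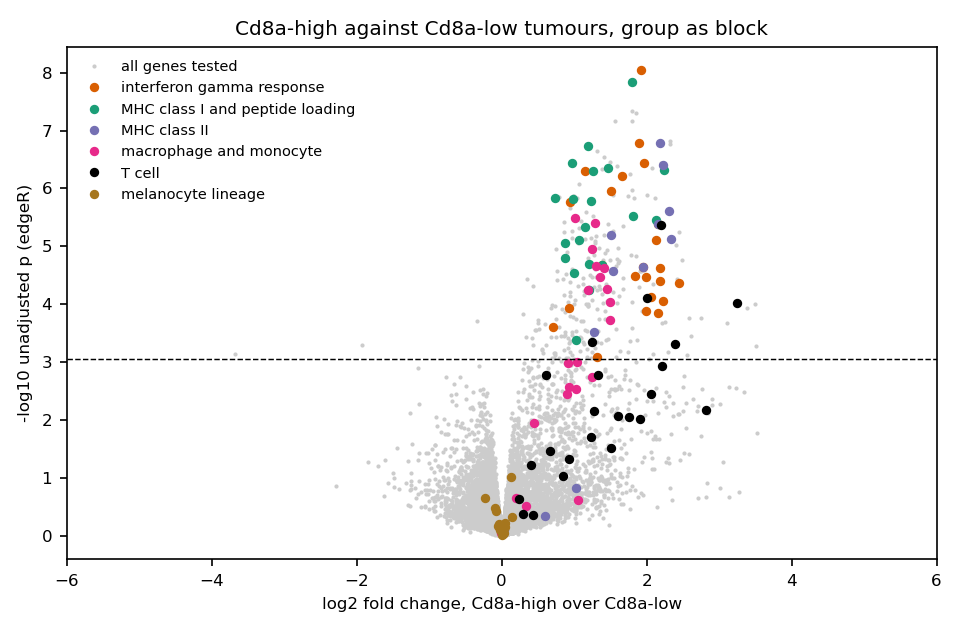
Each point is a gene tested, placed by its log2 fold change of Cd8a-high over Cd8a-low tumours (horizontal axis) and by -log10 of its unadjusted edgeR p (vertical axis); colours mark members of 6 gene lists and the dashed line is the adjusted threshold of 0.05. Interferon gamma, MHC and macrophage genes fill the upper right, and melanocyte lineage genes sit at 0.

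Of 23 T cell genes tested, 5 were higher in Cd8a-high tumours past the threshold: Cd8b1, Trbc2, Trac, Cd3e and Cd2. They are not independent of the choice of classes, because CD8 T cells carry Cd8a and the T cell receptor together. Of 26 T cell genes listed, 23 passed the filter on low counts. None of these was called lower, and the median log2 fold change was 1.33. In bulk tumours, more cells of a type and more RNA per cell cannot be told apart.

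Cd8b1, the beta chain that pairs with CD8 alpha (chr6:71322788-71337494, plus strand, GRCm38), had a lowest, median and highest level of 0.157, 0.535 and 1.46 CPM in Cd8a-high tumours, against 0, 0.0881 and 0.156 CPM in Cd8a-low tumours. On this TMM-scaled level the classes did not overlap, although the lower propafenone high tumour sat just above the highest Cd8a-low tumours. On unscaled totals that propafenone tumour had 0.160 CPM and the upper combination low tumour 0.163 CPM, so there the classes overlapped. The fold change of Cd8b1 was the largest of the T cell list (log2 fold change 3.25 ± 0.628 SE, edgeR adjusted p = 0.009). Trbc2, a constant segment of the T cell receptor beta chain, had 0.597, 0.866 and 1.56 CPM in Cd8a-high tumours, against 0.0959, 0.209 and 0.454 CPM in Cd8a-low tumours, again without overlap (log2 fold change 2.2 ± 0.323 SE, edgeR adjusted p = 0.00124). Trac, the alpha chain constant segment, lay between 0.478 and 1.84 CPM in Cd8a-high tumours (median 1.08) and between 0.0649 and 0.798 CPM in Cd8a-low tumours (median 0.32), and the classes overlapped slightly (log2 fold change 2.01 ± 0.382 SE, edgeR adjusted p = 0.00805). Cd3e, a signalling chain of the receptor, had 0.314, 0.531 and 0.94 CPM in Cd8a-high tumours, against 0, 0.136 and 0.221 CPM in Cd8a-low tumours. Its classes did not overlap, but its call was held in 6 of the 16 fits that left out 1 library (log2 fold change 2.39 ± 0.548 SE, edgeR adjusted p = 0.0311). Cd2, an adhesion receptor of T and NK cells, was likewise called in 6 of those 16 fits (log2 fold change 1.24 ± 0.282 SE, edgeR adjusted p = 0.0292).

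The T cell genes not called had log2 fold changes from 0.23 to 2.82. The partner chain Cd3g lay between 0.324 and 1.88 CPM in Cd8a-high tumours (median 0.529) and between 0 and 0.422 CPM in Cd8a-low tumours (median 0.273) and missed the call (log2 fold change 2.21 ± 0.562 SE, edgeR adjusted p = 0.0621). Cd4, the coreceptor of helper T cells, lay between 0.446 and 1.43 CPM in Cd8a-high tumours (median 0.616) and between 0 and 0.553 CPM in Cd8a-low tumours (median 0.225), and both high tumours exceeded both low ones in all 4 groups (log2 fold change 1.65 ± 0.47 SE, edgeR adjusted p = 0.122). Foxp3, which defines regulatory T cells, lay between 0.166 and 1.05 CPM in Cd8a-high tumours (median 0.424) and between 0.147 and 0.469 CPM in Cd8a-low tumours (median 0.261), and its classes overlapped widely (log2 fold change 0.64 ± 0.4 SE, edgeR adjusted p = 0.996). Of 10 helper and regulatory T cell genes tested, only Il2rb was called. It encodes a receptor subunit for interleukin-2 and interleukin-15, shared with CD8 T and NK cells, and had 1.85, 2.64 and 5.99 CPM in Cd8a-high tumours, against 0.403, 0.879 and 1.41 CPM in Cd8a-low tumours (log2 fold change 1.79 ± 0.291 SE, edgeR adjusted p = 0.00262).

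Cytotoxic effector genes had a median log2 fold change of 1.98 over 21 tested, and 4 of them were called. Like the T cell genes, those that CD8 T cells carry are not independent of the choice of classes by Cd8a. Gzmb, a protease that killer cells inject into their targets, had 1.29, 1.91 and 4.38 CPM in Cd8a-high tumours, against 0.0636, 0.448 and 1.43 CPM in Cd8a-low tumours. The classes met only where the upper propafenone low tumour, at 1.43 CPM, passed the lower anti-PD-1 high tumour, at 1.29 CPM (log2 fold change 2.21 ± 0.463 SE, edgeR adjusted p = 0.0163). The call was lost only in the fit without combination replicate 1, where the log2 fold change was 2.11. Prf1, the pore-forming perforin, had 0.564, 1.12 and 3.3 CPM in Cd8a-high tumours, against 0.0737, 0.337 and 0.821 CPM in Cd8a-low tumours (log2 fold change 1.91 ± 0.328 SE, edgeR adjusted p = 0.00375). Nkg7, a protein of cytotoxic granules, had 0.468, 1.15 and 2.66 CPM in Cd8a-high tumours, against 0, 0.258 and 0.516 CPM in Cd8a-low tumours (log2 fold change 2.49 ± 0.413 SE, edgeR adjusted p = 0.00291). For both genes each high tumour exceeded each low tumour of its own group. Klrk1, the activating receptor NKG2D, was also called (log2 fold change 1.96 ± 0.335 SE, edgeR adjusted p = 0.0037).

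The ligand itself was near the limit of detection. Ifng lay between 0.0664 and 0.503 CPM in Cd8a-high tumours (median 0.215) and between 0 and 0.142 CPM in Cd8a-low tumours (median 0.0725), and a log2 fold change of 2.08 ± 0.634 SE did not pass (edgeR adjusted p = 0.169). Gzma and Gzmk, further granule proteases, did not pass either, with log2 fold changes of 2.16 ± 0.708 and 3.13 ± 0.881 SE (edgeR adjusted p = 0.237 and 0.113). Gzmk was highest in 1 combination tumour at 0.817 CPM and was 0 in some tumours of both classes.

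Of the NK cell list 4 of 12 genes passed the filter, and the 3 called were Il2rb, Tyrobp and Fcgr3, which T cells or macrophages also express. Klrb1c, the NK1.1 antigen of C57BL/6 mice, lay between 0.11 and 0.419 CPM in Cd8a-high tumours (median 0.202) and between 0 and 0.579 CPM in Cd8a-low tumours (median 0.163) (log2 fold change 0.40 ± 0.563 SE, edgeR adjusted p = 0.996). The summed level of the NK defining markers was 0.355 to 0.887 CPM in Cd8a-high and 0 to 0.72 CPM in Cd8a-low tumours, so the ranges overlapped.

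The interferon gamma list was called in full among its tested members. Of its 25 genes listed 23 passed the filter, and 23 of the 23 were called higher, with a median log2 fold change of 1.95. The list score, which averages log2(CPM + 0.5) over the members after centring each gene, ran 0.38 to 1.72 in Cd8a-high tumours (median 0.87) and -2.09 to 0.09 in Cd8a-low tumours (median -0.59). The classes did not overlap, and 10 of the 23 genes were also free of overlap on their own. Some lists share called members, so their counts are not separate results. Of this list, Cd74 and Ciita are also counted with MHC class II, Nlrc5 with MHC class I, and Cxcl9 and Cxcl10 with the T cell attracting chemokines.

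Ifi47, an interferon-induced GTPase of the immunity-related p47 family (chr11:49076587-49096974, plus strand), had the smallest p of all genes. Its level was 110.3 and 105 CPM in the Cd8a-high combination tumours and 26.7 and 28.1 CPM in the Cd8a-low ones. Anti-PD-1 tumours had 32.6 and 38.8 CPM in the high class and 14.1 and 5.91 CPM in the low class, propafenone tumours 90.7 and 61.5 CPM against 17.6 and 13.2 CPM, and IgG tumours 46.01 and 45.9 CPM against 19.99 and 10.7 CPM. Every high tumour exceeded every low tumour of any group, and the step was of like size in the 4 groups (log2 fold change 1.92 ± 0.175 SE, edgeR adjusted p = 0.000115).

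Regulators of transcription in this pathway were called as well. Irf1, a transcription factor induced by interferon gamma, had 42.2, 69.02 and 100.1 CPM in Cd8a-high tumours, against 17.2, 29.1 and 47.9 CPM in Cd8a-low tumours (log2 fold change 1.15 ± 0.143 SE, edgeR adjusted p = 0.00032). Batf2, an interferon-inducible partner of IRF1 in macrophages, had 6.92, 12.1 and 20.02 CPM in Cd8a-high tumours, against 1.61, 2.88 and 5.98 CPM in Cd8a-low tumours and no overlap (log2 fold change 1.79 ± 0.186 SE, edgeR adjusted p = 0.000184). Nlrc5 and Ciita, the coactivators of MHC class I and class II genes, were called at log2 fold changes of 1.39 ± 0.23 and 1.95 ± 0.33 SE (edgeR adjusted p = 0.00335 and 0.00342). Socs1, the feedback inhibitor of this pathway, was called at 1.31 ± 0.319 SE on the log2 scale (edgeR adjusted p = 0.0473).

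Guanylate-binding proteins, GTPases that attack vacuoles and membranes of intracellular microbes, were called in 10 of 10 cases when the family was taken by symbol, a grouping made after the values were seen. Gbp8 had 0.645, 1.07 and 2.7 CPM in Cd8a-high tumours, against 0.0974, 0.198 and 0.641 CPM in Cd8a-low tumours without overlap (log2 fold change 2.32 ± 0.262 SE, edgeR adjusted p = 0.000267). Gbp5 had 2.79, 6.16 and 16.7 CPM in Cd8a-high tumours, against 1.02, 1.65 and 3.86 CPM in Cd8a-low tumours, with overlap between groups but not within any (log2 fold change 1.9 ± 0.216 SE, edgeR adjusted p = 0.000267). Serpina3g, a protease inhibitor of activated T cells and macrophages, had 6.34, 10.2 and 15.6 CPM in Cd8a-high tumours, against 1.3, 2.21 and 5.89 CPM in Cd8a-low tumours (log2 fold change 1.96 ± 0.237 SE, edgeR adjusted p = 0.00032). These families hold near-identical copies (Tgtp1 and Tgtp2, Apol9a and Apol9b, the H2-Q genes), and how the authors' counting shared reads between copies is not given, so single members are less certain than the block.

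The promoters of 4 genes of this pathway are printed here to show the letters that the motif counts below refer to, since these genes moved together. Each window runs from 250 bases before to 50 after a gene start of RefSeq (GRCm38.p6) and is read on the strand of the gene, the plus strand in each case. Capitals mark matches to the spelling TTCNNNGAA of the GAS element, known from promoters that interferon gamma activates, or GAAA-NN-GAAA of the ISRE, known to be bound by interferon regulatory factors such as IRF1. Both strands were searched; the GAS spelling is its own reverse complement, and an ISRE on the other strand reads TTTC-NN-TTTC. The windows are chr11:53769764-53770063 for Irf1, with a GAS match at -90 from the start, chr2:122147437-122147736 for B2m, with an ISRE at -139, chr17:34197945-34198244 for Psmb8, with a GAS at -97, and chr3:142496684-142496983 for Gbp5, with an ISRE at -165 and GAS elements at -245 and -52.
Irf1: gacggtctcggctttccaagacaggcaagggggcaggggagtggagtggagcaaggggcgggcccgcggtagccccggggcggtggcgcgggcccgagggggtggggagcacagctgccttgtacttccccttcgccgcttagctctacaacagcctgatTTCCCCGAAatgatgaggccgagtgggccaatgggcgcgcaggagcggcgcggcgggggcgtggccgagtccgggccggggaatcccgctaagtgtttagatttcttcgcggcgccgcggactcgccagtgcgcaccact
B2m: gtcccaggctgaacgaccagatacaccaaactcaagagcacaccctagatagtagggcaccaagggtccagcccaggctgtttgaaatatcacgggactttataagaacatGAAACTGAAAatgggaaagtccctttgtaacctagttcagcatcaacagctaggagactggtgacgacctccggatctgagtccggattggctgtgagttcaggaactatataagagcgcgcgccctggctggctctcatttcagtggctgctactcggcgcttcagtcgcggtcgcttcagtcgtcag
Psmb8: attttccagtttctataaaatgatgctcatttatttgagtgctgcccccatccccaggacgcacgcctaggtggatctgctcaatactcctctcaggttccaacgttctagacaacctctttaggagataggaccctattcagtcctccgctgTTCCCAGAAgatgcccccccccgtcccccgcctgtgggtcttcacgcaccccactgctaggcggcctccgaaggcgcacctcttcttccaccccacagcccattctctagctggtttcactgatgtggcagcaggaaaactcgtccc
Gbp5: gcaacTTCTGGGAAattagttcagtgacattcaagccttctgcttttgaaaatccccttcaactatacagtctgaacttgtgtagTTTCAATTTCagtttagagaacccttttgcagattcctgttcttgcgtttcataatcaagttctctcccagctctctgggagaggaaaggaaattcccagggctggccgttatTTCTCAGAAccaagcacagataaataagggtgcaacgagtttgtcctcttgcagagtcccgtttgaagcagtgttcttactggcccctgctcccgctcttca

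Among all genes tested 11938 had a promoter in the table, and 458 of these (3.84%) held the ISRE and 1004 (8.41%) the GAS. Of the 284 genes called higher 214 had a promoter, and 58 of these (27.1%) held the ISRE and 42 (19.6%) the GAS. The ISRE was present in 11 and the GAS in 9 of the 16 called interferon gamma genes with a promoter. Of the 17 called MHC class I genes with a promoter 5 held the ISRE and 2 (11.8%) the GAS, and of 6 MHC class II genes 1 held each. Among the called macrophage genes 6 had a promoter, of which 0 held the ISRE and 1 held the GAS. These counts describe letters in a window, and Ifi47, Tap1, Psmb9, Psme2 and Cxcl9 are among the called genes that matched neither spelling there, as did the window of another RefSeq start of Irf1.

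Genes known chiefly as type I interferon targets were called in 15 of 24 cases by edgeR and in 21 by DESeq2, with a median log2 fold change of 0.95. Zbp1, a sensor of Z-form nucleic acids that can trigger necroptosis, led them with 13.95, 23.3 and 33.9 CPM in Cd8a-high tumours, against 2.27, 5.08 and 10.7 CPM in Cd8a-low tumours and no overlap (log2 fold change 2.01 ± 0.261 SE, edgeR adjusted p = 0.000585). Ifit1, which binds foreign RNA caps, had 4.58, 5.97 and 10.7 CPM in Cd8a-high tumours, against 1.38, 2.54 and 5.29 CPM in Cd8a-low tumours (log2 fold change 1.29 ± 0.2 SE, edgeR adjusted p = 0.00176). Cmpk2 and Ifih1, a nucleotide kinase and an RNA sensor, were called at 0.86 ± 0.126 and 0.91 ± 0.149 SE on the log2 scale (edgeR adjusted p = 0.00115 and 0.00288). Isg15, Rsad2 and Irf7 were not called, with log2 fold changes of 0.84 ± 0.272, 0.94 ± 0.242 and 0.92 ± 0.273 SE (edgeR adjusted p = 0.23, 0.0729 and 0.147). Many of these genes also answer to interferon gamma, so the lists do not separate the pathways.

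Transcripts of genes for antigen presentation on MHC class I were higher at every step listed. Of 20 genes, 20 passed the filter and 20 were called, with a median log2 fold change of 1.19; 11 of them had no overlap between the classes. Tap2, a subunit of the transporter that brings peptides into the endoplasmic reticulum, had 28.7, 40.3 and 72.4 CPM in Cd8a-high tumours, against 7.35, 13.8 and 19.5 CPM in Cd8a-low tumours without overlap (log2 fold change 1.79 ± 0.169 SE, edgeR adjusted p = 0.000115). Tapbpl, a peptide editor related to tapasin, had 13.3, 19.5 and 25.3 CPM in Cd8a-high tumours, against 5.43, 8.7 and 11.5 CPM in Cd8a-low tumours, also without overlap (log2 fold change 1.19 ± 0.137 SE, edgeR adjusted p = 0.000267). The immunoproteasome subunits Psmb8 and Psmb9 were called at 2.25 ± 0.263 and 2.13 ± 0.291 SE (log2 fold change, edgeR adjusted p = 0.00032 and 0.0011).

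Class I chains differed in the size of the change. B2m, the invariant light chain, had 392, 597 and 735 CPM in Cd8a-high tumours, against 198, 341 and 408 CPM in Cd8a-low tumours, and the classes overlapped only through 1 propafenone high tumour at 392 CPM (log2 fold change 0.88 ± 0.143 SE, edgeR adjusted p = 0.00282). H2-K1, a classical heavy chain, had 181, 334 and 446 CPM in Cd8a-high tumours, against 115, 167 and 249.6 CPM in Cd8a-low tumours (log2 fold change 0.99 ± 0.168 SE, edgeR adjusted p = 0.00404). H2-M3, which presents formylated peptides, had 1.37, 2.63 and 5.94 CPM in Cd8a-high tumours, against 0.557, 0.917 and 1.67 CPM in Cd8a-low tumours (log2 fold change 1.46 ± 0.179 SE, edgeR adjusted p = 0.00032). H2-Q4 was called at 0.97 ± 0.117 SE (log2 fold change, edgeR adjusted p = 0.00032).

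MHC class II genes, which in most tissues mark professional antigen presenting cells and which interferon gamma can induce elsewhere, were called in 9 of 12 cases with a median log2 fold change of 1.74. H2-Ab1, the beta chain of the I-A molecule, stood at 75.7 and 50.7 CPM in the high and 22.5 and 17.8 CPM in the low combination tumours. In the anti-PD-1 group it stood at 57.4 and 27.4 against 7.52 and 5.95 CPM, in the propafenone group at 39.98 and 20.1 against 7.82 and 5.55 CPM, and in the IgG group at 54.7 and 26.9 against 11.3 and 5.6 CPM. The classes were apart inside each group, and only the lower propafenone high tumour fell under the upper combination low tumour (log2 fold change 2.18 ± 0.239 SE, edgeR adjusted p = 0.000267). H2-Eb1, the beta chain of I-E, and H2-DMa, which loads peptides, had no overlap (log2 fold change 2.31 ± 0.302 SE, edgeR adjusted p = 0.00086, and log2 fold change 2.23 ± 0.265 SE, edgeR adjusted p = 0.00032). Cd74, the invariant chain, had 72.2, 147 and 259.8 CPM in Cd8a-high tumours, against 18.02, 31.4 and 76.5 CPM in Cd8a-low tumours (log2 fold change 2.16 ± 0.29 SE, edgeR adjusted p = 0.0012). H2-Oa, H2-Ob and Ifi30 were not called, with log2 fold changes of 1.03 ± 0.676, 0.60 ± 0.771 and 0.028 ± 0.113 SE (edgeR adjusted p = 0.996, 0.996 and 0.996).

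**Figure D3:**
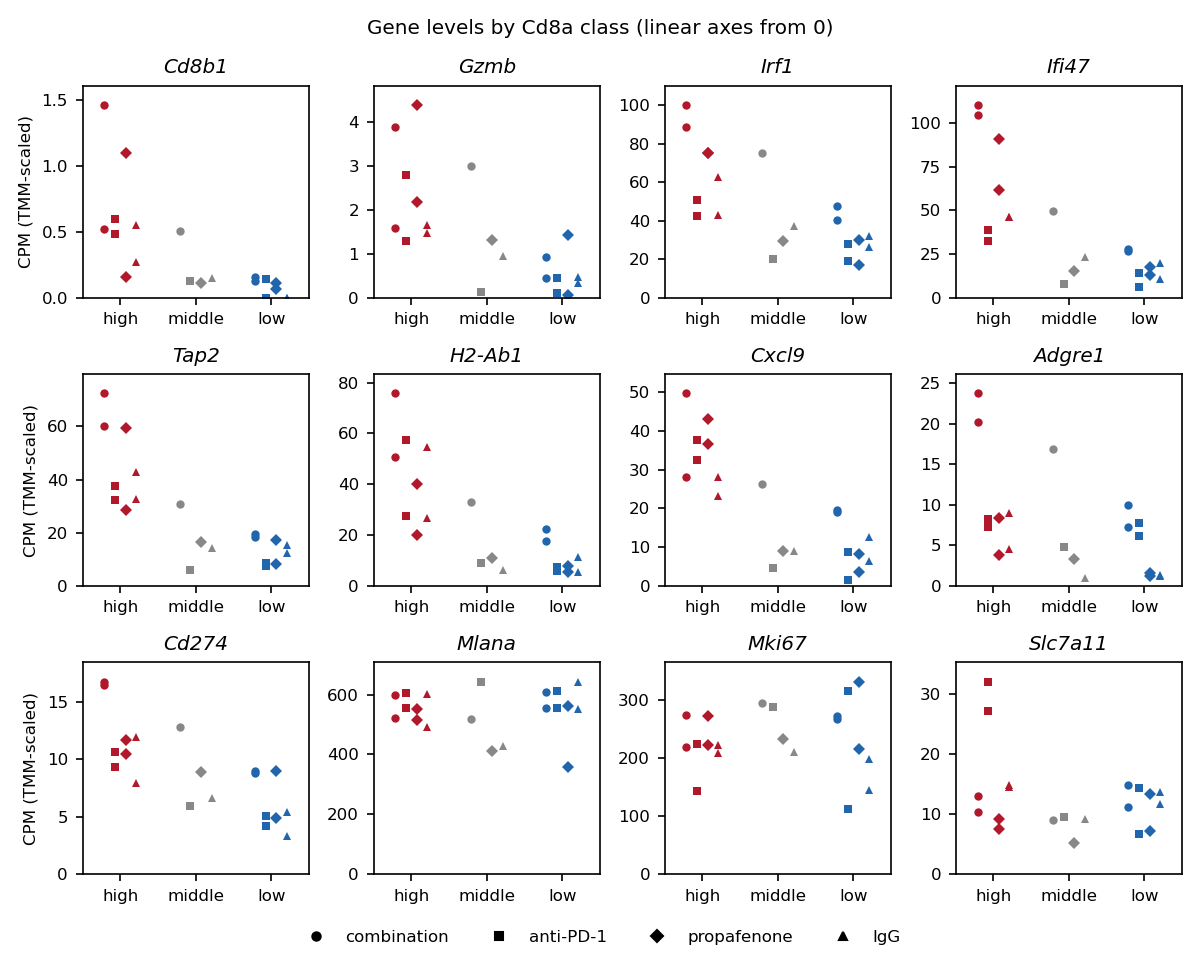
CPM, TMM-scaled (vertical axes, linear from 0), of 12 genes in each of the 20 tumours by Cd8a class (horizontal axis); marker shapes give the treatment group and each point is 1 library. Ifi47, Tap2 and Cxcl9 show no overlap between high and low tumours, and Cd8b1 only just none on this scale. Mlana, Mki67 and Slc7a11 overlap fully or nearly so.

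Chemokines that attract T cells were called in 4 of 14 cases, with a median log2 fold change of 0.81. Cxcl9 had 23.1, 34.6 and 49.7 CPM in Cd8a-high tumours, against 1.44, 8.43 and 19.6 CPM in Cd8a-low tumours, with no overlap (log2 fold change 1.99 ± 0.376 SE, edgeR adjusted p = 0.0113). Its step was smallest in the combination, at a log2 difference of 0.94, against 3.08 in the anti-PD-1, 2.74 in the propafenone and 1.45 in the IgG group, a difference that the interaction did not call (edgeR adjusted p = 0.95). Cxcl10, the second ligand of CXCR3, had 48.1, 74.02 and 125 CPM in Cd8a-high tumours, against 28.3, 50.4 and 56.9 CPM in Cd8a-low tumours and was called in 12 of 16 fits without 1 library (log2 fold change 0.71 ± 0.151 SE, edgeR adjusted p = 0.0191). Cxcl16, the ligand of CXCR6, had 2.97, 4.51 and 10.1 CPM in Cd8a-high tumours, against 0.965, 1.67 and 4.65 CPM in Cd8a-low tumours (log2 fold change 1.31 ± 0.153 SE, edgeR adjusted p = 0.000296). Ccl5, a chemokine made by T cells and others, missed the threshold (log2 fold change 0.91 ± 0.237 SE, edgeR adjusted p = 0.0698). Of 10 monocyte attracting chemokines and receptors only Ccl8 was called (log2 fold change 1.89 ± 0.342 SE, edgeR adjusted p = 0.0057).

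Checkpoint genes were called in 6 of 19 cases (median log2 fold change 0.97). Receptors of T cells among them, such as Pdcd1 and Lag3, are likewise not independent of the choice of classes by Cd8a. Pdcd1, the gene of PD-1, had 0.535, 1.16 and 2.51 CPM in Cd8a-high tumours, against 0.0737, 0.233 and 0.742 CPM in Cd8a-low tumours (log2 fold change 2.07 ± 0.394 SE, edgeR adjusted p = 0.00819). Its ligand Cd274, which encodes PD-L1, had 7.92, 11.2 and 16.8 CPM in Cd8a-high tumours, against 3.3, 5.24 and 9.02 CPM in Cd8a-low tumours, with separation inside each group (log2 fold change 0.97 ± 0.149 SE, edgeR adjusted p = 0.00168). Lag3, an inhibitory receptor that binds MHC class II, had 0.535, 1.07 and 1.47 CPM in Cd8a-high tumours, against 0.111, 0.465 and 0.782 CPM in Cd8a-low tumours and was called in 2 of 16 fits without 1 library (log2 fold change 1.23 ± 0.3 SE, edgeR adjusted p = 0.0483). Entpd1, the ectonucleotidase CD39 of exhausted T cells, regulatory T cells and macrophages, and Vsir, the checkpoint VISTA of myeloid cells, were called at 0.86 ± 0.13 and 0.99 ± 0.202 SE (log2 fold change, edgeR adjusted p = 0.00144 and 0.0138). Havcr2, Tigit and Ctla4 were not, at 0.56 ± 0.158, 2.5 ± 0.702 and 0.92 ± 0.714 SE (edgeR adjusted p = 0.113, 0.113 and 0.996).

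Of 21 macrophage genes tested 10 were called higher, with a median log2 fold change of 1.05. The list score ran -0.19 to 1.25 in Cd8a-high tumours (median 0.38) and -1.32 to 0.60 in Cd8a-low tumours (median -0.39), so it overlapped across groups, and within each group both high tumours exceeded both low ones. Tyrobp, an adaptor chain of activating receptors, had 3.05, 5.18 and 9.88 CPM in Cd8a-high tumours, against 0.851, 1.99 and 5.69 CPM in Cd8a-low tumours (log2 fold change 1.29 ± 0.188 SE, edgeR adjusted p = 0.00118). Fcer1g, a further such adaptor, had 5.74, 8.36 and 17.3 CPM in Cd8a-high tumours, against 2.73, 4.34 and 9.59 CPM in Cd8a-low tumours (log2 fold change 1.01 ± 0.145 SE, edgeR adjusted p = 0.00105). Fcgr4 and Cybb are not members of this list and are named for their small p among all genes tested. Fcgr4, an activating receptor for IgG on monocytes and macrophages, had 3.73, 6.1 and 12.2 CPM in Cd8a-high tumours, against 0.785, 1.64 and 3.58 CPM in Cd8a-low tumours and no overlap (log2 fold change 1.8 ± 0.192 SE, edgeR adjusted p = 0.000184). Cybb, the catalytic subunit of the phagocyte NADPH oxidase, had 4.76, 7.68 and 15.99 CPM in Cd8a-high tumours, against 1.16, 2.46 and 5.83 CPM in Cd8a-low tumours (log2 fold change 1.57 ± 0.168 SE, edgeR adjusted p = 0.000184).

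The macrophage antigen F4/80, encoded by Adgre1, did not separate the classes in 1 group. It stood at 20.2 and 23.8 CPM in high against 9.96 and 7.22 CPM in low tumours of the combination, at 8.36 and 3.87 against 1.18 and 1.53 CPM in the propafenone and at 4.59 and 8.95 against 1.26 and 1.38 CPM in the IgG group. Anti-PD-1 tumours had 7.28 and 8.19 CPM in the high class and 7.78 and 6.19 CPM in the low class, which overlap. Over the 4 groups it was called (log2 fold change 1.5 ± 0.288 SE, edgeR adjusted p = 0.00893), and the interaction reached an unadjusted edgeR p of 0.00307 and an adjusted p of 0.949. Apoe, Cd68 and Cd14, also abundant in macrophages, were not called, at log2 fold changes of -0.012 ± 0.103, 0.45 ± 0.158 and 0.34 ± 0.319 SE (edgeR adjusted p = 0.996, 0.31 and 0.996).

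The class and the immune cell scores cannot be told apart in these tumours. The class held 75.5% of the variance of the macrophage score within treatment groups and 81.2% of that of the T cell score. With the macrophage score as a covariate 0 of 16190 genes were called (873 at an unadjusted p under 0.05), the median log2 fold change of the 284 genes was 0.87, and that of the interferon gamma list was 1.96. With the T cell score as a covariate 0 of 16607 genes were called (300 at an unadjusted p under 0.05), the 284 genes had a median of 0.89 and the interferon gamma list of 1.18. Both covariates were added after the values were seen.

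The dendritic cell and B cell lists held few called genes, and no neutrophil or mast cell gene was called. Called shares were 11.8% for conventional dendritic, 25% for plasmacytoid dendritic and 11.1% for B cell genes. The share was 21.7% for T cell genes and 1.79% for all genes. DESeq2 called 4 conventional dendritic, 4 plasmacytoid dendritic and 3 B cell genes. For both dendritic cell scores, both high tumours exceeded both low ones in all 4 groups. Conventional dendritic cell genes were called in 2 of 17 cases, Irf8 (log2 fold change 1.07 ± 0.158 SE, edgeR adjusted p = 0.00129) and the acid amidase Naaa (log2 fold change 0.42 ± 0.0949 SE, edgeR adjusted p = 0.0264; called in 9 of 16 fits without 1 library), and macrophages also express Irf8. Xcr1 and Clec9a, markers of the cross-presenting subset, had both high tumours above both low ones in all 4 groups but were not called (log2 fold change 2.37 ± 0.73 SE, edgeR adjusted p = 0.181, and log2 fold change 1.43 ± 0.442 SE, edgeR adjusted p = 0.184). Plasmacytoid dendritic cell genes were called in 2 of 8 cases, Tlr7 and Bst2, an RNA sensor and an interferon-induced tether of viruses (log2 fold change 1.46 ± 0.233 and 0.76 ± 0.131 SE, edgeR adjusted p = 0.00222 and 0.00375). Of 9 B cell genes only Igkc was called (log2 fold change 2.03 ± 0.497 SE, edgeR adjusted p = 0.049; called in 2 of 16 fits without 1 library), and Cd79a lay between 1.65 and 2.31 CPM in Cd8a-high tumours (median 1.85) and between 1.19 and 3.32 CPM in Cd8a-low tumours (median 2.21). S100a8, a calcium-binding protein of neutrophils, lay between 0.11 and 0.664 CPM in Cd8a-high tumours (median 0.279) and between 0 and 0.498 CPM in Cd8a-low tumours (median 0.149) (log2 fold change 0.48 ± 0.636 SE, edgeR adjusted p = 0.996). Neutrophil genes were called in 0 of 10 and mast cell genes in 0 of 6 cases, with Csf3r, the G-CSF receptor, at 1.08 ± 0.331 and the tryptase Tpsb2 at 1.62 ± 0.453 SE (log2 fold change, edgeR adjusted p = 0.18 and 0.11).

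In the 14 lists where edgeR called 0 members, an unadjusted p under 0.05 was reached by 1 neutrophil, 2 mast cell, 1 lymph node, 1 endothelial and 1 keratinocyte gene. It was reached by 0 genes of the melanocyte, hypoxia and glycolysis, nuclear respiratory, mitochondrial DNA, cell cycle, ferroptosis, muscle and red blood cell lists. DESeq2 called 1 mast cell gene and 0 members of the other 13, and limma voom called 0 in all 14.

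**Figure D4:**
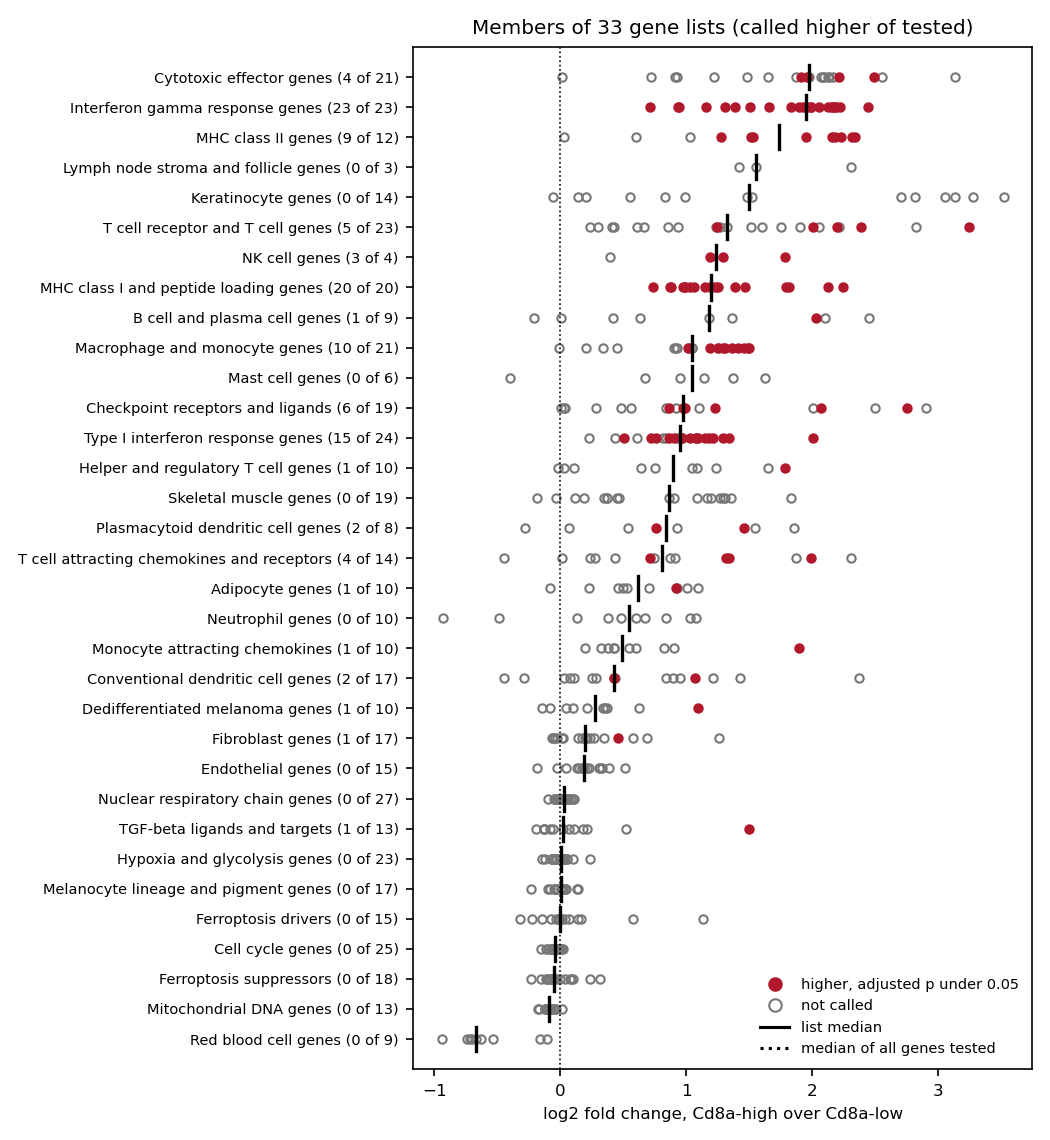
Log2 fold change of Cd8a-high over Cd8a-low tumours (horizontal axis) for each tested member of 33 gene lists (rows, with the number called higher of the number tested); filled points passed the edgeR threshold, black bars are list medians and the dotted line is the median of all genes tested. All 23 tested interferon gamma genes and all 20 MHC class I genes are filled, and the melanocyte, cell cycle and respiratory lists cluster at 0.

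No gene of the melanocyte lineage passed the test in either direction. Of 17 melanocyte lineage and pigment genes 0 were called, with a median log2 fold change of 0.0028. Mlana, a melanosome antigen seen by CD8 T cells, had 493, 554 and 605 CPM in Cd8a-high tumours, against 358, 559.7 and 643 CPM in Cd8a-low tumours (log2 fold change 0.010 ± 0.086 SE, edgeR adjusted p = 0.996). Pmel, the source of the gp100 antigen, and Mitf, the lineage transcription factor, gave 0.041 ± 0.111 and 0.036 ± 0.298 SE (log2 fold change, edgeR adjusted p = 0.996 and 0.996), so the interval of Mitf is wide. Of 10 genes of the dedifferentiated melanoma state only Axl was called. This receptor kinase, which macrophages and dendritic cells also carry, had 45.1, 94.9 and 149 CPM in Cd8a-high tumours, against 35.6, 43.2 and 52.2 CPM in Cd8a-low tumours (log2 fold change 1.09 ± 0.157 SE, edgeR adjusted p = 0.00115).

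Proliferation and energy metabolism held no called gene among those listed. Cell cycle genes were called in 0 of 25 cases with a median log2 fold change of -0.039, and Mki67 had 143, 223 and 275 CPM in Cd8a-high tumours, against 111, 242 and 332 CPM in Cd8a-low tumours (log2 fold change -0.039 ± 0.182 SE, edgeR adjusted p = 0.996). Hypoxia and glycolysis genes were called in 0 of 23 cases (median 0.0031), nuclear respiratory chain genes in 0 of 27 (median 0.027) and mitochondrial DNA genes in 0 of 13 (median -0.091). Vegfa, a hypoxia target that drives vessel growth, gave -0.064 ± 0.207 SE (edgeR adjusted p = 0.996). Pfkp, Uqcrc2, mt-Atp8 and E2f1 had the smallest p of their lists in the direction of the median, at 0.10 ± 0.0926, 0.11 ± 0.0588, -0.18 ± 0.114 and -0.15 ± 0.112 SE.

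Ferroptosis, a cell death through iron-dependent lipid peroxidation that the series title names, left no called gene in this contrast. Suppressors were called in 0 of 18 cases (median -0.049) and drivers in 0 of 15 (median -0.0030). Gpx4, the peroxidase that detoxifies lipid peroxides, had 214, 235 and 281 CPM in Cd8a-high tumours, against 203, 227 and 352 CPM in Cd8a-low tumours (log2 fold change -0.044 ± 0.0927 SE, edgeR adjusted p = 0.996). Hmox1, which releases iron from haem, had 81.8, 109 and 225 CPM in Cd8a-high tumours, against 78.1, 102 and 170.3 CPM in Cd8a-low tumours (log2 fold change 0.16 ± 0.212 SE, edgeR adjusted p = 0.996). Dhodh, a mitochondrial suppressor, and Trp53, a driver, gave -0.16 ± 0.115 and -0.14 ± 0.0911 SE (log2 fold change, edgeR adjusted p = 0.996 and 0.996).

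Slc7a11, the cystine importer that feeds glutathione synthesis, has been described as a gene that interferon gamma of CD8 T cells lowers. Here it gave log2 fold change 0.31 ± 0.242 SE, edgeR adjusted p = 0.996. Anti-PD-1 tumours had 32.04 and 27.2 CPM in the high class and 14.3 and 6.6 CPM in the low class, and IgG tumours 14.9 and 14.5 CPM against 11.6 and 13.7 CPM. Combination tumours had 10.4 and 13.03 CPM against 14.9 and 11.1 CPM and propafenone tumours 9.24 and 7.44 CPM against 7.12 and 13.4 CPM. High tumours exceeded low ones in the anti-PD-1 and IgG groups and overlapped with them in the other 2, and the interaction had an unadjusted edgeR p of 0.00819 and an adjusted p of 0.949.

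Stromal lists held 2 called genes. Fibroblast genes were called in 1 of 17 cases (median 0.20), endothelial genes in 0 of 15 (median 0.19) and TGF-beta genes in 1 of 13 (median 0.020). Postn, a matrix protein of activated fibroblasts, and Tgfbi, a TGF-beta-induced matrix protein that macrophages also make, were those called (log2 fold change 0.46 ± 0.0984 SE, edgeR adjusted p = 0.0206, and log2 fold change 1.5 ± 0.181 SE, edgeR adjusted p = 0.00032). Tie1, an endothelial receptor, was not (log2 fold change 0.33 ± 0.138 SE, edgeR adjusted p = 0.584).

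Markers of tissue around the tumour varied widely in both classes. Skeletal muscle genes were called in 0 of 19, keratinocyte genes in 0 of 14, adipocyte genes in 1 of 10 and red blood cell genes in 0 of 9 cases, with medians of 0.86, 1.5, 0.62 and -0.67. Summed defining markers of muscle ran from 7.53 to 262 CPM in Cd8a-high tumours and from 2.01 to 302 CPM in Cd8a-low tumours, those of keratinocytes from 0 to 69.3 and from 0 to 24.2 CPM. Myh4, a fast muscle myosin, and Krt15, a basal keratin, gave 1.83 ± 0.92 and 3.52 ± 1.28 SE (log2 fold change, edgeR adjusted p = 0.847 and 0.408). The adipocyte gene called was Pparg, which macrophages also express (log2 fold change 0.92 ± 0.224 SE, edgeR adjusted p = 0.0478; called in 1 of 16 fits without 1 library). Genes of lymph node stroma and follicles had 3 of 11 members past the filter and 0 called, and Glycam1, a marker of lymph node vessels, was at 0 in every library. Total counts, TMM factors, the share of the 50 most abundant genes, mitochondrial and haemoglobin shares and the muscle and keratinocyte scores did not differ between the classes past the threshold (7 measures, exact within-group permutation tests, two-sided, p = 0.248 to 0.640, adjusted p = 0.616 to 0.640, smallest possible p = 0.00154). With the muscle, keratinocyte or red blood cell score as a covariate 260, 253 and 299 genes were called.

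Only 3 genes were called lower. Chn2, the Rac GTPase-activating protein beta-chimaerin (chr6:54039554-54301810, plus strand), had 13.4, 16.2 and 16.8 CPM in Cd8a-high tumours, against 18.03, 19.7 and 23.1 CPM in Cd8a-low tumours. The classes did not overlap, but the difference was small (log2 fold change -0.33 ± 0.0695 SE, edgeR adjusted p = 0.0151). It was called in each leave-one-out fit except that without combination replicate 2, where the log2 fold change was -0.31. The others, chosen here after their values were seen because there are so few, were Cnn1, a smooth muscle calponin, and Gm41349, whose role is not annotated. They reached at most 1.31 and 0.294 CPM in any of the 16 tumours, at log2 fold changes of -1.93 ± 0.443 and -3.67 ± 0.882 SE (edgeR adjusted p = 0.0319 and 0.0433), and were called in 4 and 2 of the 16 fits.

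Other genes with the smallest p values were Sp110, Apol9a and Fcgr4. Sp110 is an interferon-induced nuclear body protein and had 3.93, 5.77 and 9.82 CPM in Cd8a-high tumours, against 0.571, 1.52 and 3.51 CPM in Cd8a-low tumours, without overlap (log2 fold change 1.86 ± 0.194 SE, edgeR adjusted p = 0.000184). Apol9a belongs to an interferon-induced family of apolipoprotein L genes and had 8.26, 15.5 and 35.4 CPM in Cd8a-high tumours, against 1.19, 3.17 and 7.2 CPM in Cd8a-low tumours, also without overlap (log2 fold change 2.32 ± 0.262 SE, edgeR adjusted p = 0.000267).

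The middle tumour of each group took no part in the choice of genes. For the 284 genes higher in Cd8a-high tumours, the middle combination tumour lay between the mean of the high and the mean of the low tumours of its group for 88.0% of genes, and the middle propafenone tumour for 84.5%. The middle IgG tumour lay between for 45.8% of genes and at or below the low mean for 54.2%, and the middle anti-PD-1 tumour for 35.9% and 62.7%. The Cd8a level of those IgG and anti-PD-1 tumours was 0.533 and 0.321 CPM. The same shares over all genes tested are not given here. The 284 genes were chosen for a gap between the classes, so these percentages are descriptions only. Cd8b1 placed 18 of the 20 tumours in the same class as Cd8a, and classes cut by it called 295 genes, of which 270 were among the 284.

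**Figure D5:**
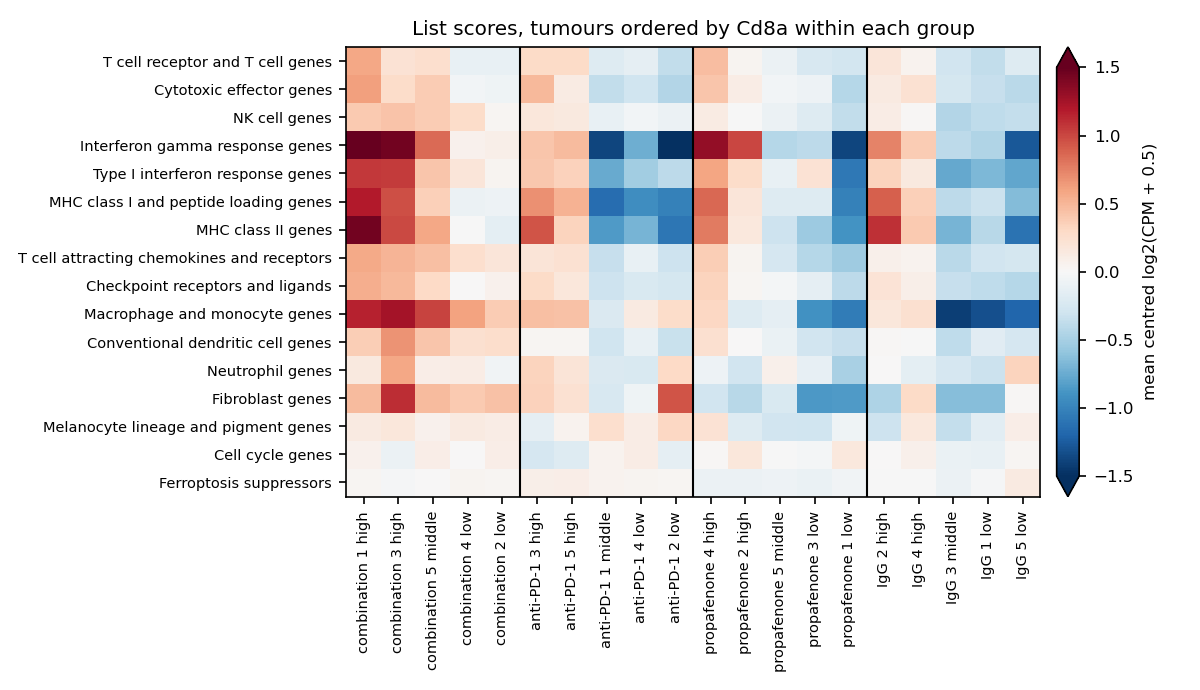
Scores of 16 gene lists (rows) in the 20 tumours (columns, ordered by Cd8a within each group, which black lines separate); colour is the member average of log2(CPM + 0.5), each gene centred on all tumours, capped at -1.5 and 1.5. Interferon gamma and MHC rows are red in high tumours and blue in most low ones (near white in the combination), the middle anti-PD-1 and IgG tumours are blue, and melanocyte, cell cycle and ferroptosis rows stay pale.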

How the data were processed

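The authors deposited a table of expected counts per gene, estimated read counts stored as whole numbers, and a table of TPM, an abundance per transcript length that they scaled to a common total and that served here as an alternative only. Per the submitters' processing notes HISAT2 2.2.1, SAMtools 1.9 and FastQC were used with GRCm38 and mm10; the counting tool, annotation release and strand setting are not given in the sources used here. Libraries were made with a SMARTER mRNA kit per the labels.

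Classes were cut on unscaled Cd8a CPM; Cd8a was then dropped. The 16 libraries were fitted in R 4.3.3 with edgeR 4.0.16 (TMM, filterByExpr, robust quasi-likelihood, terms for treatment and class, 11 residual degrees of freedom) and checked on simulated counts; p-values were Benjamini-Hochberg adjusted over 15910 genes. The filter kept genes by their counts, so genes near 0 in Cd8a-low tumours entered through the high class. CPM shown, apart from those of Cd8a, use TMM-scaled totals of all 20 libraries. Alternatives used limma 3.58.1, DESeq2 1.42.0, other scalings, filters and classes, pseudocounts of 0.1 and 1, covariates, and left-out libraries or groups. Gene coordinates are from GENCODE mouse release M21 on GRCm38, promoters from RefSeq (GRCm38.p6).

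The classes, the 33 gene lists and the tests were chosen with earlier results of these data known. Named genes are up to 12 per direction with the smallest p past the threshold, at least 0.5 CPM on average, one direction in all 16 leave-one-out fits and an ordinary symbol; a panel of 35 genes; and up to 4 members per list (1 where at most 1 member was called, a limit set after results were seen) with the smallest p in the direction of its median. Some of these are not reported here. Others named from the lists were chosen after their values were seen. The standard error of a log2 fold change is its size over the root of F. Class differences of single library measures were tested by exact permutation within groups (1296 assignments).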

Additional observations from a re-analysis of the deposited data

Results flagged for a closer look

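Of 108 class-wise checks of a single far tumour among 8, each of which chance flags in about 1 of 20 groups, 9 were past the critical gap. In Cd8a-high tumours, Gzmk was far highest in combination replicate 1 at 0.817 CPM, B2m far lowest in propafenone replicate 2 at 392 CPM, and Mki67 far lowest in anti-PD-1 replicate 3 at 143 CPM. In Cd8a-low tumours, Gzma was far highest in combination replicate 4 at 0.516 CPM and Xcr1 in combination replicate 2 at 0.363 CPM. Ccl5 was far lowest in propafenone replicate 1 at 0.589 CPM and Mlana in propafenone replicate 3 at 358 CPM. The share of counts from mitochondrial DNA genes was far highest in anti-PD-1 replicate 2, at 5.66%, which is also the tumour with no Cd8a count and the smallest library. The keratinocyte score was far highest in combination replicate 4, at 1.31.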

How the results depend on the processing

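With single libraries left out 221 to 302 genes were called, 218 to 300 of them higher and 1 to 7 lower. All 284 genes kept their sign in these 16 fits, 197 kept the call in each, and, among the genes named, Cd3e, Cd2, Lag3, Igkc, Pparg, Naaa, Cnn1 and Gm41349 lost it in at least 7. Cxcl10 lost it without IgG replicate 2, anti-PD-1 replicate 5 and combination replicates 1 and 2, and Postn without IgG replicate 1 and combination replicate 2. The count of 287 genes (284 higher, 3 lower) moved past 1.5 times under 8 settings. DESeq2 called 465 (443 higher, 22 lower). Leaving out 1 treatment group gave 153 without IgG (153 and 0), 172 without propafenone (166 and 6), 146 without the combination (146 and 0) and 259 without anti-PD-1 (259 and 0). No treatment block gave 87 (85 and 2), and only the highest and lowest tumour of each group gave 84 (84 and 0). The macrophage and the T cell score as covariates, added after seeing the data, each gave 0 (0 and 0). A continuous log2 Cd8a term called 201 (188 and 13). Counts lower changed to 6 and 5 with limma on log2(TPM + 0.1) and log2(TPM + 1), to 2 with limma voom or the keratinocyte score, and to 1 with no filter, counts divided by 4, a minimum of 1 CPM, classes by Cd8b1, the muscle score or the replicate block. The replicate block called 262 genes (261 higher). Tumours with the same replicate number were not alike on average. Over 30 pairs with the same number the correlation averaged -0.0074 (-0.483 to 0.520), and 7 of 20 tumours correlated best with their own number. These values do not settle whether the numbers pair the tumours. The interaction called 0 genes with both tools.

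With no filter on low counts the medians of the T cell, mast cell and neutrophil lists were 1.56, 1.45 and 0.38. With 1 library left out, list medians ran 1.31 to 1.66 for T cell receptor and T cell genes, 0.78 to 1.27 for Helper and regulatory T cell genes, 1.86 to 2.18 for Cytotoxic effector genes, 0.96 to 1.42 for B cell and plasma cell genes, 0.75 to 1.02 for Plasmacytoid dendritic cell genes, 0.97 to 1.26 for Macrophage and monocyte genes, 0.30 to 0.86 for Neutrophil genes, 0.88 to 1.3 for Mast cell genes, 0.67 to 0.94 for T cell attracting chemokines and receptors, 1.43 to 2.1 for Lymph node stroma and follicle genes, -0.060 to 0.0056 for Ferroptosis suppressors and 0.67 to 3.73 for Keratinocyte genes. Ranges are given where a median moved by more than 1 SD between libraries of the same class and group (41 of 594 list values). This spread replaced an earlier one, the SD of the list's difference over the 4 treatment groups, after results were seen; with that one 61 had moved. The keratinocyte list was lowest without anti-PD-1 replicate 3 and highest without combination replicate 4.

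Lists with at most 1 called gene were described by 1 gene of smallest p in place of up to 4, also after results were seen. This left out 60 genes, of which 0 were called and 30 reversed in at least 1 setting (56 of 2431 values). Genes that reversed were among those not called in the report, apart from Adgre1 with the macrophage score. With the T cell score as covariate Cd3g, Foxp3, Cd79a, S100a8, Pmel, Mitf, Vegfa, Gpx4, Slc7a11, mt-Atp8, E2f1, Dhodh and Trp53 gave -0.22, -0.18, 0.0062, -0.50, -0.049, -0.26, 0.45, 0.036, -0.015, 0.039, 0.013, 0.064 and 0.016. With the macrophage and monocyte score as covariate Foxp3, Adgre1, Mlana, Pmel, Mitf, Vegfa, Klrb1c and Csf3r gave -0.28, -0.15, -0.017, -0.21, -0.13, 0.24, -0.35 and -0.17. Without the propafenone group Mlana, Pmel, Mitf and Vegfa gave -0.061, -0.050, -0.15 and 0.22. With classes by Cd8b1 Mlana and Vegfa gave -0.015 and 0.0035. With only the highest and lowest tumour of each group Mlana, Pmel, Mitf, Vegfa and Mki67 gave -0.13, -0.11, -0.46, 0.025 and 0.11. With log2 Cd8a as a continuous term Mlana, Pmel, Mitf, Vegfa and Mki67 gave -0.017, -0.024, -0.030, 0.025 and 0.014. With the keratinocyte score as covariate Mlana gave -0.0033. With limma voom Mitf and Myh4 gave -0.069 and -0.22. With limma on log2(TPM + 1) Mitf and Mki67 gave -0.051 and 0.024. With limma on log2(TPM + 0.1) Mitf and Mki67 gave -0.052 and 0.027. Without the combination group Mitf gave -0.032. With the skeletal muscle score as covariate Vegfa and Gpx4 gave 0.032 and 0.028. With the red blood cell score as covariate Gpx4 gave 0.0062. Without the anti-PD-1 group Slc7a11, Mki67 and E2f1 gave -0.067, 0.025 and 0.011. With a replicate block Mki67 gave 0.053. With no treatment block Myh4 gave -0.028. With 1 library left out, log2 fold changes ran for Mlana -0.061 to 0.048, Pmel -0.034 to 0.12, Mitf -0.10 to 0.22, Vegfa -0.16 to 0.13, Hmox1 -0.0054 to 0.26, Gpx4 -0.10 to 0.040 and Mki67 -0.13 to 0.14. For all these settings the cause was not tested beyond what each leaves out. Counts are low for the T cell genes, and Cd8a, which set the classes, rests on 0 to 211 counts.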

Other observations

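Gene families, grouped by symbol after the values were seen and therefore given without a test, are described here by their counts. Of the 284 genes called higher, 101 belonged to a list. The p47 GTPases, which guard cells against intracellular parasites and are all members of the interferon gamma list, were called in 7 of 7 tested cases with a median log2 fold change of 2.06. The Fc gamma receptors, which bind antibody on myeloid cells and include Fcgr1 and Fcgr3 of the macrophage list, were called in 4 of 4 (median 1.22), and the Clec4a lectin receptors of myeloid cells in 3 of 3 (median 1.54). PYHIN genes, a family of DNA sensors, were called in 7 of 11 (median 1.24), apolipoprotein L genes in 4 of 7 (median 1.77) and Schlafen genes in 3 of 7 (median 0.74). Slamf receptors were called in 3 of 4 (median 1.73). Of 38 collagens and 94 ribosomal protein genes 0 were called in either direction, with medians of -0.01 and -0.04. Beside these stands the background of 1.79% of all genes called higher.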
